A study of Macaca mulatta with 12 samples.

Results

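The genes described here encode nuclear subunits of the mitochondrial respiratory chain and of ATP synthase. They were taken by symbol from the deposited table: NDUFA, NDUFB, NDUFC, NDUFS or NDUFV followed by a number, SDH with a letter from A to D, and every symbol beginning with UQCR, COX4 to COX8 or ATP5, without NDUFA4 and NDUFA4L2. The rule found 48 of 16745 genes and used no measured value. Complex I had 25 of them, complex II 1, complex III 5, complex IV 7 and complex V, the ATP synthase, 10. ATP5S and ATP5SL match by symbol, although they are not counted among the subunits of the enzyme. Leaving both out changed no count of calls in the main fit, which is described below. Of the 48 genes, 43 had a mean that lay 1 log2 unit or more over the table's minimum, and these were tested.

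RNA came from cultures labelled as cardiomyocytes derived from induced pluripotent stem cells of Macaca mulatta, the rhesus macaque. Cells were cultured either flat, as a monolayer, or in 3 dimensions as engineered heart tissue (EHT), and either in normoxia or in hypoxia. Each of the 4 groups had 3 libraries. All cultures were kept in RPMI medium with B27 supplement containing insulin. Hypoxia meant 24 hours in an anaerobic pouch, followed, after the medium was renewed, by another 24 hours. No hours and no medium change are recorded for normoxia, so oxygen and the change of medium cannot be told apart. The labels do not say how many stem cell lines were used, what other cells the EHT was cast with, or whether replicates were separate differentiations, so p-values measure the spread between these libraries, which may be technical.

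Complex I takes electrons from NADH and complex II takes them from succinate. Complex III passes them on to cytochrome c, complex IV hands them to oxygen, and ATP synthase uses the resulting proton gradient to make ATP. Most subunits are encoded in the nucleus and a small core in mitochondrial DNA, and heart muscle, which beats on oxidative metabolism, is among the tissues richest in these complexes. Some subunits of complex IV exist as isoforms that depend on tissue or on oxygen, COX4I2 and the heart and muscle form of COX7A among them.

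The deposited values are log2 values after a variance-stabilising transformation, and they could be turned back into 4154346 to 11298841 whole reads per library. Values given here as centred log2 were shifted so that the median tested gene lies at 7.46 in every library, and a change is therefore relative to the median gene. The direction of the members' median depended on the scale for EHT against monolayer in normoxia, for hypoxia in monolayer and, on the deposited values, for the difference of the hypoxia responses. The 10 genes with most reads took 9.82 ± 0.803% of reads (SD, n = 3) in monolayer normoxia, 20.3 ± 0.241% in monolayer hypoxia, 16.7 ± 3.22% in EHT normoxia and 17.9 ± 1.13% in EHT hypoxia. FN1, which encodes the matrix protein fibronectin, took 2.24 ± 1.05%, 10.4 ± 0.529%, 6.55 ± 2.13% and 5.53 ± 1.16% in the same order. Scaled by total reads, the median of all 12084 tested genes moved by -0.35 for EHT against monolayer in normoxia, by -0.65 for hypoxia in monolayer, by -0.16 for hypoxia in EHT and by 0.46 for the difference between these responses, from 0.07, 0.07, 0.03 and -0.08 after centring. Of all genes called, 55.2% were higher in EHT in normoxia after centring, against 43.9% with median-of-ratios scaling, 45% with voom, 23.2% with scaling by total reads and 9.49% on the deposited values. For hypoxia in monolayer the share was 59.9% after centring, 15.8% with total reads and 18.2% as deposited, and for hypoxia in EHT it was 55%, 34.6% and 76.1%. For the difference of the responses it was 42.2%, 81.4% and 91.8%. For EHT against monolayer in hypoxia no scaling moved the share by more than 10 percentage points from 48.4%.

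Replicate 3 stood apart from the others of its group in both EHT groups. The chi-square per degree of freedom between its reads and theirs was 35.9 and 53.3 in normoxia and 43.9 and 36.2 in hypoxia, against 4.77 and 11.56 between replicates 1 and 2; it was 36.0 to 70.9 in monolayer normoxia and 4.73 to 8.90 in monolayer hypoxia. The cardiomyocyte label was checked against 14 of 17 marker genes that the table holds. Together they took 0.0497% to 0.368% of reads in monolayer normoxia, 0.562% to 0.618% in monolayer hypoxia, 0.00214% to 0.0197% in EHT normoxia and 0.00297% to 0.115% in EHT hypoxia. MYL2 had no read in any EHT library, and EHT hypoxia replicate 3, the lowest of its group, also had none of MYH6, MYL3, TNNI3 and NPPA. The 8 fibroblast markers took 3.34% to 7.05% across the 12 libraries, and the 7 epithelial markers took 0.0949% to 0.495% in monolayer normoxia and at most 0.00786% elsewhere. In bulk RNA, fewer cells of a type and less RNA per cell cannot be told apart. The part of these markers in the results below was not tested.

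The 48 genes together took a smaller share of all reads in hypoxia than in normoxia, in either culture. Scaled by total reads, the median of all tested genes also moved with hypoxia, by -0.65 in monolayer and by -0.16 in EHT. After centring, the median difference of the tested members was 0.20 in monolayer, which is no fall relative to the median gene, and -0.33 in EHT. The share was 0.554%, 0.595% and 0.585% in monolayer normoxia, 0.444%, 0.469% and 0.440% in monolayer hypoxia, 0.485%, 0.473% and 0.559% in EHT normoxia, and 0.387%, 0.357% and 0.313% in EHT hypoxia. The means were 0.578 ± 0.0214%, 0.451 ± 0.0158%, 0.505 ± 0.0470% and 0.352 ± 0.0369% (SD, n = 3), and within each culture the hypoxia libraries lay below all normoxia libraries. Complex I went from 0.198 ± 0.00838% to 0.134 ± 0.00477% in monolayer and from 0.182 ± 0.0162% to 0.112 ± 0.0131% in EHT. Complex V, with 0.219 ± 0.0129%, 0.173 ± 0.00834%, 0.168 ± 0.0135% and 0.128 ± 0.0180% in the same order of groups, lay lower in EHT than in monolayer at either oxygen level. In normoxia its members differed in direction: ATP5A1 went from 864.8 ± 50.5 RPM (reads scaled to equal library totals) in monolayer to 469.5 ± 44.5 in EHT, while ATP5E went from 268.3 ± 19.8 to 371.1 ± 19.4 and ATP5J from 117.3 ± 12.1 to 182.2 ± 6.55. Complex IV differed little in monolayer, at 0.0780 ± 0.00959% and 0.0771 ± 0.00134%, and lay at 0.0809 ± 0.00834% and 0.0607 ± 0.00229% in EHT. Counted only among the tested genes and without the 10 most abundant of each library, the members took 0.643 ± 0.0264%, 0.567 ± 0.0186%, 0.607 ± 0.0323% and 0.429 ± 0.0392%.

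**Figure D1:**
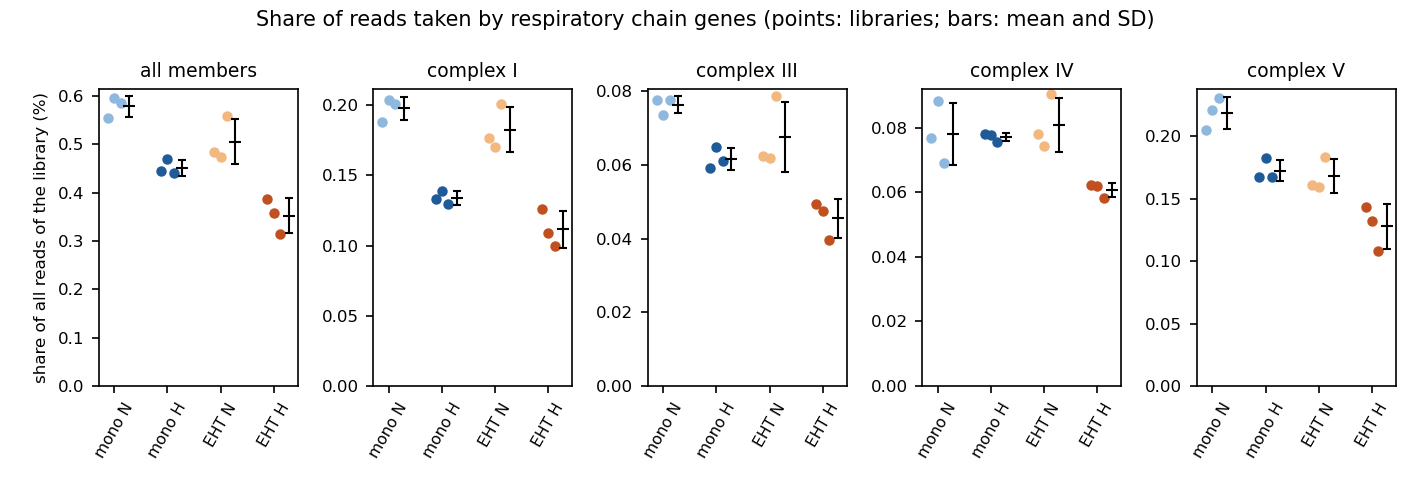
Share of all reads of a library, in percent on axes that start at 0, taken by all 48 genes and by those of complexes I, III, IV and V; points are libraries, bars the mean and SD of 3, and N and H stand for normoxia and hypoxia. The 3 EHT hypoxia libraries lie lowest in the panel of all genes, between 0.313% and 0.387%.

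The heatmap of 42 of the tested genes sets each library beside the gene's own mean. Rows within a complex are ordered by the EHT difference of hypoxia minus normoxia, lowest first. Red in EHT normoxia and blue in EHT hypoxia in the upper rows of a complex therefore follow from this order. EHT normoxia stood out by red cells in the upper rows of complex I, in UQCRQ and in ATP5J. EHT hypoxia was blue in the upper rows of complex I, and monolayer hypoxia was red in COX5A, ATP5A1 and ATP5C1.

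**Figure D2:**
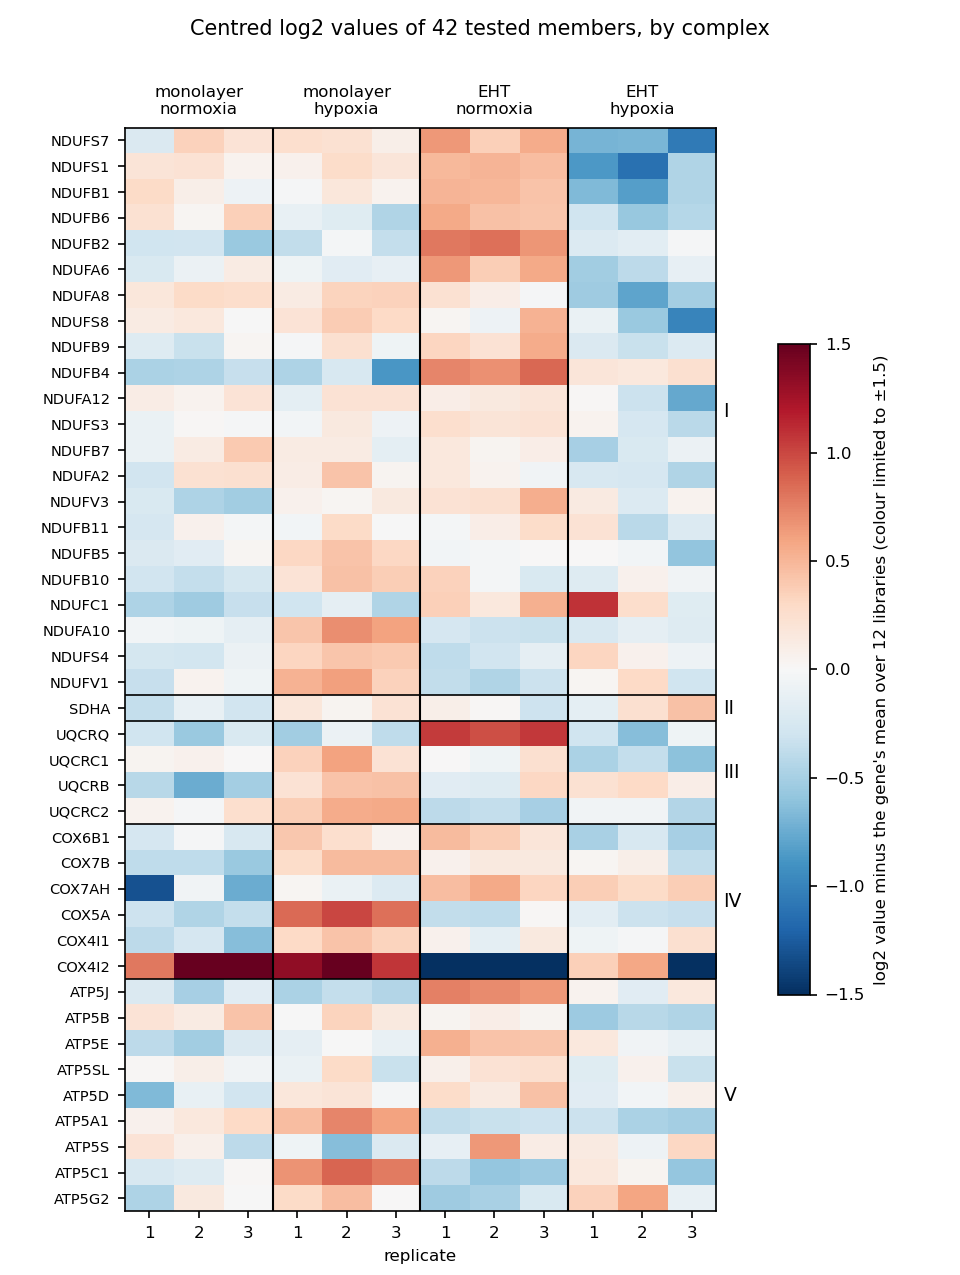
Centred log2 value minus the gene's mean over 12 libraries, for 42 of the 43 tested genes in rows by complex and the libraries in columns by group, with the colour limited to 1.5 either way. Rows within a complex are ordered by the EHT difference of hypoxia minus normoxia, lowest first. UQCRQ is red in all 3 EHT normoxia libraries (10.23 to 10.33 centred log2) and not in the 3 EHT hypoxia libraries (8.63 to 9.20).

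In EHT the transcripts of many subunits were lower after hypoxia, and 12 of the 18 that fell belonged to complex I. Of the 43 tested genes 18 fell and 3 rose, where 16% of all genes tested fell and 19.5% rose (limma, adjusted p under 0.05). The median difference was -0.33, against 0.03 over all genes, and in 23 of the 43 the hypoxia libraries all lay below the normoxia libraries, against 19.9% of all genes, and in 5 all above, against 23.6%. Complex I had 12 of 23 lower and 1 higher, complex III 2 of 4 lower, complex IV 1 of 6 lower and 1 higher, complex V 3 of 9 lower and 1 higher, and SDHA, the flavoprotein of complex II, was not called (0.25 ± 0.16, adjusted p = 0.264). The 18 lower calls all held with quantile normalization, median-of-ratios scaling, voom and scaling by total reads, and none was made on the deposited values, where all 18 kept their sign. Without both EHT libraries numbered 3 there were 16 lower and 6 higher.

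NDUFS7 and NDUFS1 carry iron-sulfur clusters along the electron path of complex I. NDUFS7 stood at 8.72, 8.42 and 8.62 centred log2 in EHT normoxia and at 7.37, 7.38 and 7.001 in EHT hypoxia. It fell by 1.34 ± 0.17 on the log2 scale (SE, n = 3 per group, limma adjusted p = 0.000104), which is 2.53-fold, and the groups did not overlap. NDUFS1 stood at 9.02, 9.04 and 9.0001 in normoxia and at 7.67, 7.42 and 8.09 in hypoxia, a fall of 1.29 ± 0.16 (limma adjusted p = 7.16e-05). The hypoxia libraries of NDUFS1 were spread over more than those of normoxia, and all lay lower. In monolayer NDUFS7 differed by 0.08 ± 0.17 (adjusted p = 0.748) and NDUFS1 by 0.02 ± 0.16 (adjusted p = 0.931) in the same limma fit, while scaled by total reads they were at -0.66 (adjusted p = 0.0101) and -0.72 (adjusted p = 0.00218). The median of all tested genes was then at -0.65.

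Among the other members that fell were accessory and core subunits of complexes I, III, IV and V. UQCRQ, an accessory subunit of complex III, was at 10.31, 10.23 and 10.33 in EHT normoxia and at 8.96, 8.63 and 9.20 in EHT hypoxia, and fell by 1.36 ± 0.16 (limma adjusted p = 5.91e-05). NDUFB1, of the membrane arm of complex I, was at 9.36, 9.34 and 9.27 and then at 8.19, 8.03 and 8.40, and fell by 1.12 ± 0.14 (limma adjusted p = 6.88e-05). The 3 normoxia libraries of each gene lay close together and far above those of hypoxia. NDUFB6 fell by 0.91 ± 0.14 and NDUFB2 by 0.89 ± 0.14, both accessory to the same arm. ATP5J, a subunit of the peripheral stalk of ATP synthase, fell by 0.69 ± 0.13, COX6B1, which joins complex IV monomers, by 0.75 ± 0.14, and UQCRC1, a core protein of complex III, by 0.54 ± 0.13 (adjusted p between 0.000336 and 0.00669). ATP5B, the catalytic beta subunit of ATP synthase, fell by 0.53 ± 0.12 (limma adjusted p = 0.00482), while the alpha subunit gene ATP5A1 differed by -0.10 ± 0.12 (adjusted p = 0.574).

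Higher after hypoxia in EHT were COX4I2, described with its isoform partner below, ATP5G2, which encodes the c subunit of the ATP synthase rotor (0.69 ± 0.20, adjusted p = 0.0183), and NDUFS4, an accessory subunit of complex I (0.37 ± 0.13, adjusted p = 0.041, limma). Scaled by total reads or by quantiles, ATP5G2 was at 0.43 and 0.41 and NDUFS4 at 0.11 and 0.24, none of them called. Leaving out 1 library ended the call of ATP5G2 for EHT hypoxia replicate 1 or 2 or EHT normoxia replicate 1 or 2 (adjusted p = 0.0533 to 0.0837). It ended that of NDUFS4 for the same libraries or any monolayer hypoxia library (adjusted p = 0.0552 to 0.151). The count of 3 became 6 without EHT hypoxia replicate 3, 1 without EHT hypoxia replicate 1 or EHT normoxia replicate 1 or 2, and 0 without EHT hypoxia replicate 2. Of the lower calls 15 of 18 held whichever library was left out. NDUFS8 lost its call (-0.71 ± 0.21) without EHT hypoxia replicate 2 or 3 or EHT normoxia replicate 3 (adjusted p = 0.052 to 0.0844), NDUFS3 (-0.42 ± 0.13) without any EHT library but hypoxia replicate 1 (adjusted p = 0.0546 to 0.075), and NDUFA12 without any library but EHT hypoxia replicate 1 (adjusted p = 0.0515 to 0.144). NDUFA12 is named for this after its values were seen. Of the markers, 2 of 13 cardiomyocyte genes were higher and 0 lower in this comparison, 2 of 6 smooth muscle genes were lower and 3 of 7 epithelial genes were higher and 1 lower. Their part in the falls was not tested.

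**Figure D3:**
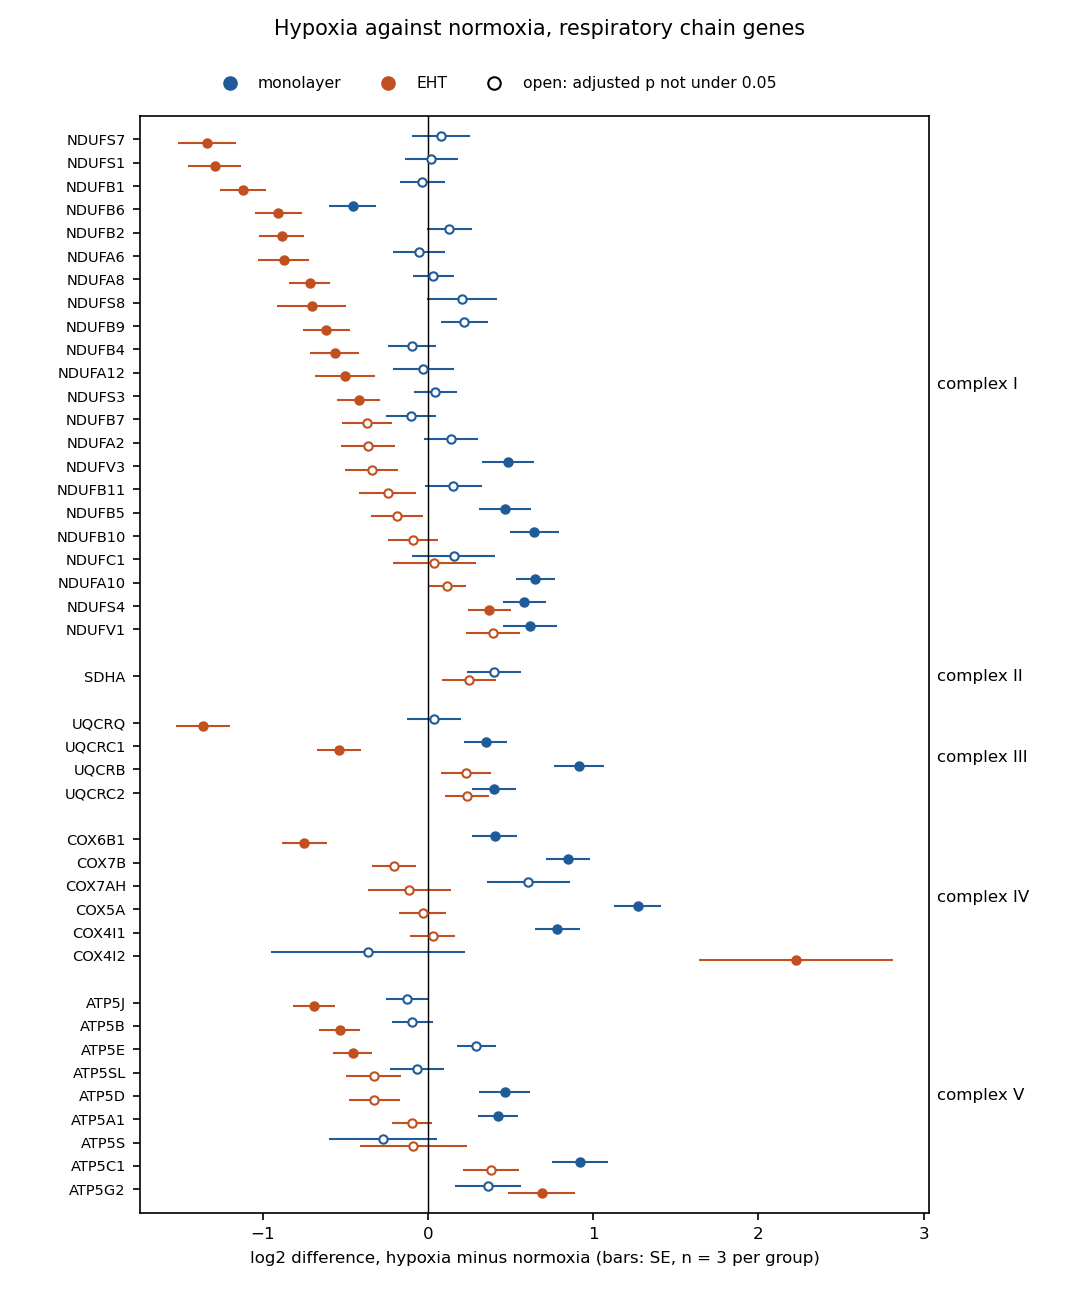
Log2 difference of hypoxia minus normoxia for 42 of the 43 tested genes by complex, in monolayer (blue) and EHT (orange), from values centred on each library's median; bars are SE with n = 3 per group, and open points did not pass an adjusted p of 0.05. Most EHT points lie left of 0 and most monolayer points right of it, and 11 of the 16 monolayer genes called higher change sign when libraries are scaled by total reads, none of the 18 EHT genes called lower. With that scaling the median of all tested genes is at -0.65 in monolayer and -0.16 in EHT.

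After hypoxia many of the respiratory chain genes were lower in EHT than in monolayer. Of 43 tested, 19 were lower and 3 higher, where 19.7% of all genes were lower and 18.4% higher. The median was -0.31 against -0.02 over all genes, and 23 members had EHT libraries that all lay below the monolayer libraries, against 26.4% of all genes, and 3 all above, against 24.4%. Complex I had 10 of 23 lower and 2 higher, complex III 2 of 4 lower, complex IV 4 of 6 lower, complex V 3 of 9 lower and 1 higher, and SDHA differed by 0.03 ± 0.16 (adjusted p = 0.89). All 19 kept their sign in every scaling run, with 16 to 19 of them called except on the deposited values, where 1 was. A core set was fixed by name and includes NDUFV1, NDUFS1, NDUFS3, NDUFS7, NDUFS8, SDHA, UQCRC1, ATP5A1 and ATP5B. Not all of these hold a catalytic or redox site, and UQCRC2, also a core protein of complex III, was left outside the set. The core set had 8 of 10 lower and 0 higher, with a median of -0.82. The other 33 tested members had 11 lower and 3 higher, with a median of -0.27. The difference between these sets was not tested.

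COX5A, a nuclear subunit in the matrix part of complex IV, was at 9.07, 9.22 and 9.05 in monolayer hypoxia and at 8.05, 7.90 and 7.87 in EHT hypoxia. It was lower in EHT by -1.17 ± 0.14 (limma adjusted p = 8.44e-05), or 2.25-fold. ATP5A1 was at 12.47, 12.73 and 12.60 in monolayer and at 11.68, 11.53 and 11.49 in EHT, with a difference of -1.03 ± 0.12 (limma adjusted p = 6.2e-05). Neither pair of groups overlapped. NDUFS7 (-1.01 ± 0.17), NDUFS1 (-0.98 ± 0.16), ATP5C1 of the central stalk of ATP synthase (-0.90 ± 0.17), NDUFA8 of complex I (-0.88 ± 0.13) and UQCRC1 (-0.86 ± 0.13) were lower too (adjusted p between 0.00024 and 0.00141). NDUFB4, an accessory subunit of complex I, was higher in EHT, at 9.76, 9.74 and 9.82 against 9.12, 9.33 and 8.71 in monolayer (0.72 ± 0.15, limma adjusted p = 0.00228). Leaving out 1 library ended 4 of the 19 lower calls and 2 of the 3 higher ones. NDUFV1, the NADH-binding flavoprotein (-0.48 ± 0.16), lost its call without EHT hypoxia replicate 1 or 3 or monolayer hypoxia replicate 1 or 2 (adjusted p = 0.0571 to 0.11). NDUFA2 lost it without EHT hypoxia replicate 3 or monolayer hypoxia replicate 1 or 2 (adjusted p = 0.0503 to 0.119) and NDUFB5 without monolayer hypoxia replicate 2 (adjusted p = 0.0521), both named for this after their values were seen. COX4I2 is given below. Of the genes called higher, ATP5J (0.44 ± 0.13) lost its call without monolayer hypoxia replicate 1 or 3 (adjusted p = 0.0576 and 0.051), and NDUFC1, a small subunit of complex I (0.68 ± 0.25), without any library but EHT hypoxia replicate 3 (adjusted p = 0.0535 to 0.18). In the same comparison 9 of 13 cardiomyocyte markers and all 6 smooth muscle markers were lower in EHT, and the marker share of EHT hypoxia replicate 3 was the lowest of its group; their part was not tested. Without both EHT libraries numbered 3, 18 members were lower and 3 higher.

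In monolayer the direction of the hypoxia response depended on the scale. Relative to the median gene 16 of 43 rose and 1 fell, where 27.8% of all genes rose and 18.6% fell. The median was 0.20 against 0.07. Scaled by total reads 1 rose and 23 fell with a median of -0.54, where 9.43% of all genes rose and 50.4% fell with -0.65. Quantile normalization gave 6 and 8 with -0.13, against 23.7% and 22.7% of all genes with -0.0006. On the deposited values 0 were called in either direction and the median was -0.35. Of all genes 4.43% rose and 19.9% fell there, with -0.48. In 19 of 43 the centred hypoxia libraries all lay above the normoxia libraries, against 35.2% of all genes, and in 1 all below, against 26.8%. Complex I had 6 of 23 higher and 1 lower, complex III 3 of 4 higher, complex IV 4 of 6 higher and complex V 3 of 9 higher, again after centring. SDHA differed by 0.40 ± 0.16 (adjusted p = 0.0627).

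COX5A was the one member called higher with every scaling but the deposited one, on which it stood at 0.72. It was at 7.91, 7.77 and 7.86 in monolayer normoxia and at 9.07, 9.22 and 9.05 in hypoxia, and rose by 1.27 ± 0.14 after centring (limma adjusted p = 1.97e-05) and by 0.55 scaled by total reads (adjusted p = 0.0138). In RPM its monolayer libraries went from 42.7, 39.1 and 40.5 to 60.1, 62.8 and 57.8, with no overlap. ATP5C1 (0.92 ± 0.17), UQCRB, a small subunit of complex III (0.91 ± 0.15), COX7B (0.85 ± 0.13) and COX4I1 (0.78 ± 0.14) of complex IV rose after centring (limma adjusted p between 0.000244 and 0.000783) and stood at 0.18, 0.18, 0.11 and 0.05 with total reads, each positive and not called. NDUFA10 (0.65 ± 0.12), NDUFV1 (0.62 ± 0.16) and ATP5A1 (0.42 ± 0.12) of the genes that rose after centring stood at -0.08, -0.12 and -0.31 with total reads. NDUFB6 was the gene that fell (-0.46 ± 0.14, limma adjusted p = 0.0189), and it was at -1.21 with total reads and -0.67 with quantile normalization. Its call was lost without monolayer hypoxia replicate 3 (adjusted p = 0.0854) or monolayer normoxia replicate 3 (adjusted p = 0.0722).

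Of the 16 genes that rose after centring, 9 kept the call whichever library was left out, and 9 were called without monolayer hypoxia replicate 2. ATP5A1 lost its call without that library (adjusted p = 0.0579). UQCRC1 (0.35 ± 0.13 after centring, -0.39 with total reads) lost it without EHT hypoxia replicate 1, EHT normoxia replicate 1 or 2, monolayer hypoxia replicate 1 or 2, or any monolayer normoxia library (adjusted p = 0.0511 to 0.195). UQCRC2, the other core protein of complex III (0.40 ± 0.13 after centring, -0.34 with total reads and -0.22 with quantile normalization), lost it without monolayer hypoxia replicate 2 or 3 or monolayer normoxia replicate 1 or 2 (adjusted p = 0.0677 to 0.0887), and COX6B1 (0.40 ± 0.14 after centring, -0.33 with total reads) without monolayer hypoxia replicate 1 or 2 or monolayer normoxia replicate 1 or 3 (adjusted p = 0.0741 to 0.115). Among members named for this after their values were seen, NDUFV3 lost it without any monolayer hypoxia library or monolayer normoxia replicate 2 or 3 (adjusted p = 0.0527 to 0.0807). NDUFB5 lost it without any monolayer hypoxia library or monolayer normoxia replicate 1 or 2 (adjusted p = 0.0533 to 0.0861), and ATP5D without monolayer hypoxia replicate 1 or 2 or monolayer normoxia replicate 1 (adjusted p = 0.0761 to 0.11). In monolayer hypoxia 7 of 13 cardiomyocyte markers and 4 of 6 smooth muscle markers were higher, fibroblast markers had 4 of 8 higher and 2 lower, epicardial markers 1 of 6 higher and 3 lower, and epithelial markers 6 of 7 lower. Their part in these values was not tested.

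The hypoxia response of the respiratory chain genes differed between EHT and monolayer. After centring 22 of the 43 had a positive difference in monolayer and a negative one in EHT, 1 the reverse, 10 were positive in both and 10 negative in both. These signs were counted for the members only, so they are not set against all genes. Tested as an interaction, the response in EHT minus that in monolayer was lower for 23 and higher for 1, where 14.1% of all genes were lower and 10.3% higher, and the median was -0.56 against -0.08. Scaled by total reads, 7 were lower and the median was -0.09. Of all genes 5.93% were then lower and 25.9% higher, with a median of 0.46. With quantile normalization 11 were lower, where 13.4% of all genes were lower and 12.5% higher. On the deposited values 0 were lower and the median was 0.14. There 0.844% of all genes were lower and 9.49% higher, with a median of 0.62. By complex, 12 of 23 were lower in complex I, 0 of 1 in complex II, 3 of 4 in complex III, 4 of 6 in complex IV, which also had the 1 higher, and 4 of 9 in complex V.

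Called lower with total reads as well were NDUFS7, UQCRQ, NDUFS1, COX5A, COX6B1, NDUFB1 and NDUFB2. Their interactions after centring were -1.42 ± 0.25, -1.39 ± 0.23, -1.31 ± 0.23, -1.30 ± 0.20, -1.15 ± 0.19, -1.08 ± 0.19 and -1.01 ± 0.19 (adjusted p between 0.000867 and 0.00267). With total reads they were -0.99, -0.94, -0.88, -0.84, -0.69, -0.63 and -0.55. After centring, the rise of COX5A in monolayer makes up its interaction. Its EHT libraries were at 7.85, 7.84 and 8.23 in normoxia and at 8.05, 7.90 and 7.87 in hypoxia. In RPM its EHT means were 34.4 ± 8.49 and 27.6 ± 3.24. In NDUFS7, NDUFS1, UQCRQ, NDUFB1 and NDUFB2 the fall in EHT makes up the interaction after centring. In RPM their monolayer means fell with hypoxia too. They went from 52.5 to 32.4, 74.9 to 44.9, 87.4 to 53.2, 91.1 to 52.3 and 72.2 to 46.7. With total reads the median of all tested genes was at -0.65 in monolayer. Without both EHT libraries numbered 3 the interaction was lower for 19 members and higher for 1. COX6B1 rose after centring in monolayer (9.41, 9.64 and 9.42 against 10.06, 9.91 and 9.71) and fell in EHT (10.13, 10.03 and 9.84 against 9.18, 9.41 and 9.15), with no overlap in either culture; its monolayer difference is -0.33 with total reads. Of the 23 lower interactions 15 were called whichever library was left out, and 15 were called without monolayer hypoxia replicate 2. In the same test 4 of 6 smooth muscle markers were lower (median -2.50), 6 of 7 epithelial markers higher and 1 lower (median 4.91), 3 of 6 epicardial markers higher, 3 of 8 fibroblast markers lower and 1 higher, and 1 of 13 cardiomyocyte markers lower. Their part was not tested.

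In normoxia EHT and monolayer differed in part of these genes, and those called higher in EHT after centring lay outside the core set. Relative to the median gene 16 of 43 were higher in EHT and 4 lower, where 22.8% of all genes were higher and 18.5% lower, and the median was 0.25 against 0.07. Scaled by total reads 6 were higher and 12 lower with a median of -0.19, where 11% of all genes were higher and 36.6% lower with -0.35. With quantile normalization it was 11 and 10 with 0.05, against 23.8% and 21.6% of all genes with 0.08. On the deposited values it was 0 and 3 with -0.49, against 2.69% and 25.6% with -0.66. In 21 of 43 the centred EHT libraries all lay above the monolayer libraries, against 31.1% of all genes, and in 7 all below, against 24.4%. Without both EHT libraries numbered 3 there were 17 higher and 5 lower. Complex I had 7 of 23 higher and 1 lower, complex III 2 of 4 higher and 1 lower, complex IV 4 of 6 higher and 1 lower, complex V 3 of 9 higher and 1 lower, and SDHA differed by 0.18 ± 0.16 (adjusted p = 0.397). The core set had 0 of 10 called higher and 2 lower with a median of 0.04. The other 33 tested members had 16 called higher and 2 lower with a median of 0.34. In 3 of the 10 the centred EHT libraries all lay above the monolayer libraries, and in 3 all below. In the other 33 these counts were 18 and 4. The difference between the sets was not tested.

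UQCRQ had the largest difference of those called higher. It was at 8.97, 8.70 and 9.03 in monolayer and at 10.31, 10.23 and 10.33 in EHT, 1.39 ± 0.16 higher (limma adjusted p = 3.8e-05), or 2.62-fold, and 1.03 higher with total reads. NDUFB4 was at 9.11, 9.12 and 9.23 in monolayer and at 10.31, 10.27 and 10.44 in EHT (1.19 ± 0.15, limma adjusted p = 5.27e-05). NDUFB2 (1.14 ± 0.14), ATP5J (0.9999 ± 0.13) and ATP5E, the small epsilon subunit of ATP synthase (0.83 ± 0.12), were higher as well (adjusted p between 4.12e-05 and 0.000155). These 5 and COX7AH were the 6 that total reads also called higher, at 0.47 to 1.03 on the log2 scale. Lower in EHT were ATP5A1, at 12.06, 12.16 and 12.31 in monolayer and 11.63, 11.66 and 11.70 in EHT (-0.51 ± 0.12, limma adjusted p = 0.00477), UQCRC2 (-0.51 ± 0.13, adjusted p = 0.00871) and COX4I2, among the 4 called. These 3 were lower with total reads and quantile normalization too.

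Members called higher in EHT in both oxygen conditions were ATP5J, NDUFB4 and NDUFC1. Those called lower in both included ATP5A1, COX4I2 and UQCRC2. The comparisons share no library in their means, but the same fit gave both their estimate of the spread. Calls alike were sought among the members only, so they are not set against all genes. COX6B1, COX7B and NDUFB1 were called higher in EHT in normoxia and lower in hypoxia, with NDUFB1 at -0.0028 in normoxia when scaled by total reads. Some of these calls were lost with 1 library left out. In normoxia that held for NDUFC1 without EHT normoxia replicate 1 or 3 or monolayer normoxia replicate 1 or 2 (adjusted p = 0.0529 to 0.0746). It held for NDUFB1 without any monolayer hypoxia or EHT normoxia library, EHT hypoxia replicate 1 or monolayer normoxia replicate 2 or 3 (adjusted p = 0.0501 to 0.159). It also held for UQCRB without EHT normoxia replicate 3 or monolayer normoxia replicate 2 (adjusted p = 0.0577 and 0.0581) and for COX4I1 without EHT normoxia replicate 1 or 3 or monolayer normoxia replicate 3 (adjusted p = 0.0586 to 0.0745). Cardiomyocyte markers had 9 of 13 lower in EHT normoxia, epithelial markers 6 of 7 lower and markers of dividing cells 7 of 7 lower, while fibroblast markers had 3 of 8 higher. Their part was not tested.

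**Figure D4:**
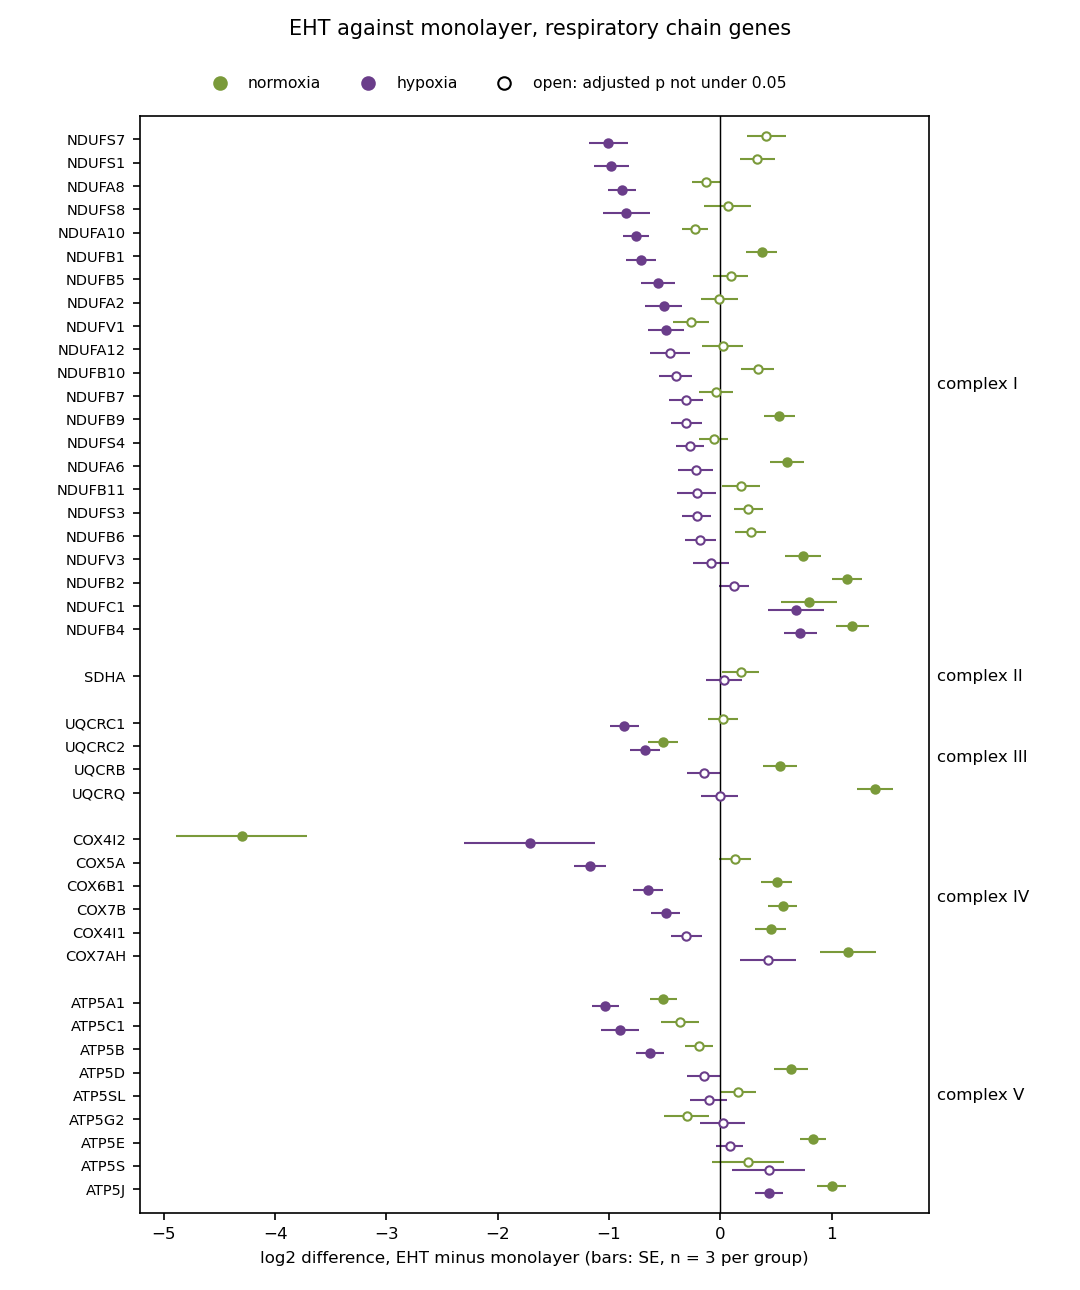
Log2 difference of EHT minus monolayer for 42 of the 43 tested genes by complex, in normoxia (green) and in hypoxia (purple), from values centred on each library's median; bars are SE with n = 3 per group, and open points did not pass an adjusted p of 0.05. The normoxia median over all 43 is 0.25 (-0.19 when libraries are scaled by total reads) and the hypoxia median is -0.31 (-0.22 when scaled by total reads). Over all genes tested these medians are 0.07 (-0.35) and -0.02 (0.06).

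Complex IV held the gene with the widest range, COX4I2. It encodes an isoform of subunit IV known from lung and placenta and as a gene induced by low oxygen, and COX4I1 encodes the common isoform. COX4I2 had 185, 497 and 366 reads in monolayer normoxia, 105, 174 and 109 in monolayer hypoxia, 0, 0 and 0 in EHT normoxia and 41, 55 and 2 in EHT hypoxia. It was thus present in every monolayer library, unseen in EHT normoxia and seen again in EHT hypoxia, where replicate 3 held 2 reads. Against 3 reads over the whole EHT normoxia group, its RPM was at least 239-fold higher in normoxic monolayers and at least 40.2-fold higher in EHT hypoxia, bounds that cover counting error only. The fitted differences were -4.30 ± 0.59 for EHT against monolayer in normoxia (limma adjusted p = 0.000116) and 2.23 ± 0.59 for hypoxia in EHT (adjusted p = 0.0107), and they depend on how the transformation treats 0 reads. The call for hypoxia in EHT was lost without EHT hypoxia replicate 2 (1.74, adjusted p = 0.0516).

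After hypoxia COX4I2 was lower in EHT than in monolayer by -1.71 ± 0.59 (limma adjusted p = 0.0358). The call was lost without EHT hypoxia replicate 3 (-0.85, adjusted p = 0.0844) or any monolayer hypoxia library (adjusted p = 0.0669 to 0.106). In monolayer the difference with oxygen was -0.36 ± 0.59 (adjusted p = 0.65). Its interaction, 2.59 ± 0.83, was the 1 higher call (adjusted p = 0.0387), and it was lost in all leave-one-out fits except those without EHT hypoxia replicate 3 or monolayer normoxia replicate 1 (adjusted p = 0.0549 to 0.0909). COX4I2 made up 4.07%, 9.67% and 13.04% of the reads of both subunit IV genes in monolayer normoxia, 3.73%, 4.20% and 3.21% in monolayer hypoxia and 2.20%, 2.54% and 0.127% in EHT hypoxia. The summed cardiomyocyte markers, too, had their lowest group mean in EHT normoxia and, within EHT hypoxia, their lowest value in replicate 3, and their part in the COX4I2 values was not tested.

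COX4I1 was at 11.00, 11.13 and 10.75 centred log2 in monolayer normoxia, 11.69, 11.82 and 11.73 in monolayer hypoxia, 11.45, 11.25 and 11.54 in EHT normoxia and 11.33, 11.37 and 11.63 in EHT hypoxia. Monolayer normoxia was the low group after centring. In RPM its libraries, at 386, 428.9 and 308.7, overlapped those of each other group. COX7AH, listed by RefSeq as a synonym of COX7A1, the heart and muscle isoform of subunit VIIa, was at 6.03, 7.29 and 6.59 in monolayer normoxia and 7.80, 7.90 and 7.66 in EHT normoxia. It was higher in EHT by 1.15 ± 0.25 (limma adjusted p = 0.003), with no overlap, and by 0.82 with total reads (adjusted p = 0.0284). After hypoxia the difference was 0.43 ± 0.25 (adjusted p = 0.193). In RPM COX7AH was at 9.47, 27.4 and 16.2 in monolayer normoxia and at 28.6, 30.7 and 28.8 in EHT normoxia, with monolayer replicate 2 just under the EHT libraries. COX6A2, the heart and muscle isoform of subunit VIa, had 0 to 8 reads in monolayer libraries and 0 to 3 in EHT libraries and could not be tested.

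**Figure D5:**
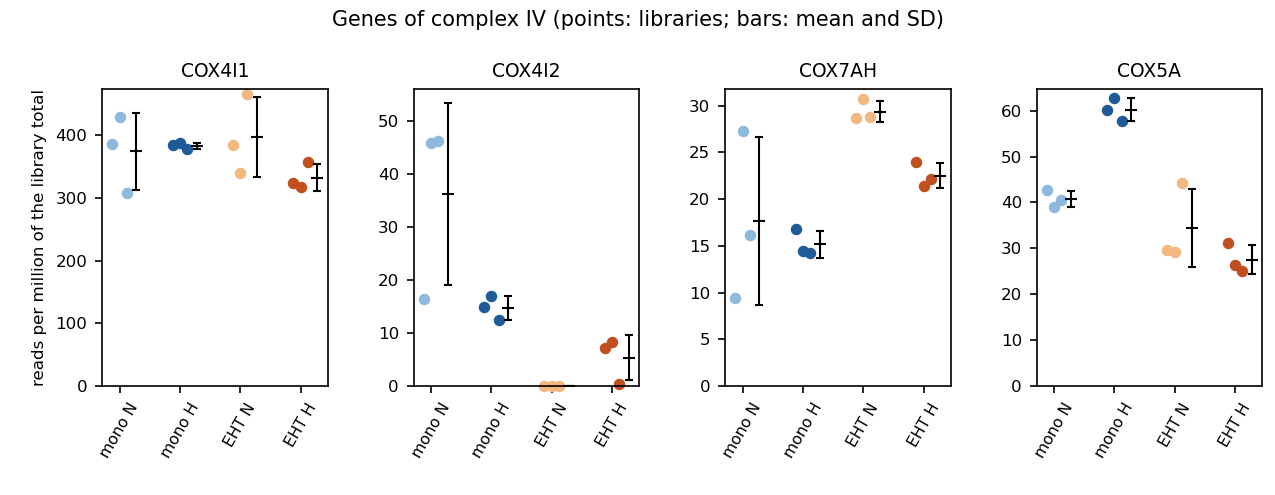
Reads of a gene scaled to equal library totals (RPM), on axes that start at 0, for COX4I1, COX4I2, COX7AH and COX5A; points are libraries, bars the mean and SD of 3, N is normoxia and H hypoxia. COX4I2 is at 0 in the 3 EHT normoxia libraries, and COX5A is highest in the 3 monolayer hypoxia libraries (57.8 to 62.8 RPM).

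Other genes of the pathway were counted from fixed lists. Of 41 tested assembly factors, which put the complexes together, 13 fell and 2 rose with hypoxia in EHT (31.7% and 4.88%, against 16% and 19.5% of all genes), and 11 fell and 4 rose in monolayer (26.8% and 9.76%, against 18.6% and 27.8%). NDUFAF5, for complex I, fell in EHT (-2.02 ± 0.29) and in monolayer (-1.28 ± 0.29), and UQCC2, for complex III, fell in EHT (-1.41 ± 0.24). ECSIT, for complex I, rose in EHT (1.18 ± 0.18) and in monolayer (0.91 ± 0.18), and COX15, which makes heme A for complex IV, rose in EHT (1.22 ± 0.22) and in monolayer (0.94 ± 0.22). Limma adjusted p lay between 0.000231 and 0.000922 for these 4 in EHT and between 0.00145 and 0.00339 for NDUFAF5, ECSIT and COX15 in monolayer. In normoxia 9 of the 41 were higher in EHT and 0 lower, COX20 (1.54 ± 0.19) and COA6 (1.36 ± 0.21) of complex IV among them, and in hypoxia 8 were higher and 1 lower. The shares called higher, 21.95% and 19.5%, were near the 22.8% and 18.4% of all genes, and those called lower, 0% and 2.44%, were below 18.5% and 19.7%. The 21 tested genes of the TCA cycle and pyruvate entry had 12 higher and 0 lower with hypoxia in monolayer and 5 higher and 6 lower in EHT, and after hypoxia 15 were lower in EHT than in monolayer and 1 higher. That is 57.1% higher in monolayer against 27.8% of all genes, 23.8% higher and 28.6% lower in EHT against 19.5% and 16%, and 71.4% lower in EHT than in monolayer against 19.7%. The counts include kinases that inhibit pyruvate dehydrogenase, PDK1 among them. PDK1 rose in monolayer (2.26 ± 0.34) and in EHT (2.60 ± 0.34), and after hypoxia it was lower in EHT than in monolayer (-1.23 ± 0.34). FH, fumarase, fell in EHT (-1.40 ± 0.15, limma adjusted p = 2.6e-05). MPC1, of the mitochondrial pyruvate carrier, rose in monolayer (1.15 ± 0.29) and fell in EHT (-1.10 ± 0.29), with an interaction of -2.25 ± 0.41 (limma adjusted p = 0.00205).

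Among 9 tested electron carriers and factors of low oxygen, 4 rose and 0 fell with hypoxia in monolayer (44.4% higher, against 27.8% of all genes), and 3 rose and 3 fell in EHT (33.3% each, against 19.5% and 16%). NDUFA4, now counted with complex IV, fell in EHT (-1.36 ± 0.17), and NDUFA4L2, its relative known to be induced by hypoxia, rose there (4.91 ± 0.61). BNIP3, a mitophagy receptor and hypoxia target, rose in both cultures (2.54 ± 0.30 in monolayer and 4.02 ± 0.30 in EHT). LONP1, the matrix protease, rose in both as well (1.30 ± 0.17 and 1.15 ± 0.17). Of 15 tested regulators of mitochondrial biogenesis, 4 rose and 3 fell with hypoxia in monolayer (26.7% and 20%) and 3 rose and 3 fell in EHT (20% each), shares near those of all genes. PPARGC1A, the coactivator PGC-1 alpha, rose in both cultures (2.24 ± 0.34 and 1.44 ± 0.34), and PPARGC1B, its relative, rose in monolayer (1.45 ± 0.33) and fell in EHT (-1.15 ± 0.33), where its call was lost without EHT normoxia replicate 2 (adjusted p = 0.0622). Of 14 genes of mitochondrial import and the outer membrane, 5 rose and 5 fell with hypoxia in EHT (35.7% each, against 19.5% and 16% of all genes) and 5 rose and 0 fell in monolayer (35.7% higher, against 27.8%). VDAC2, a channel of the outer membrane, rose in both (1.48 ± 0.15 and 1.39 ± 0.15). The signs of the genes named so far from these lists were the same with total reads and quantile normalization. The counts of the lists are given after centring only. Of the 4 carriers and factors that rose in monolayer, CYC1 was at 0.57 after centring and at -0.17 with total reads. BNIP3, ISCU and LONP1 stayed positive.

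The 5 members that were not tested were NDUFA13, NDUFS6 and UQCR10, with 0 reads in all 12 libraries, ATP5O with 0 to 7 reads and COX6A2. The tested member nearest the filter was ATP5S, with 3 to 28 reads. The 12 mitochondrially encoded genes in the table also had 0 reads in every library, so the nuclear subunits could not be set beside their mitochondrial partners. Some other subunits, SDHB, UQCRFS1, COX6A1, COX7A2 and NDUFV2 among them, were not analysed here. Many of these short genes have processed copies in primate genomes, and how reads that match several places were counted is unknown from the labels, so their levels are uncertain to that extent.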

How the data were processed

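RNA of 12 libraries was isolated with RNeasy Mini columns, made into libraries with version 2 of the Ion total RNA kit and read on an Ion Proton, per the labels' protocols. The submitters' processing notes name HISAT2 for alignment, featureCounts for counting and DESeq2, without versions. For the genome build, the annotation, the strand setting and reads with several matches, nothing is given in the sources used here. The deposited table holds the authors' variance-stabilised log2 values of 16745 gene symbols, one column per library, and 0 columns belonged to no sample. This transformation flattens low values, so folds of genes with few reads are understated. Its minimum, 3.00, stands for 0 reads. Inverting it gave whole reads within 0.01 for 100% of values, with totals of 4154346 to 11298841 per library. The authors' scaling factors, as the values imply them, were 0.404 to 1.40 times the median-of-ratios factors of these reads, and library medians ran from 6.98 to 8.75. Each library was therefore centred on its median over the 12084 genes whose mean lay 1 log2 unit or more over the minimum, which were the genes tested.

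With limma 3.58.1 (R 4.3.3), 1 mean for each group was fitted across all libraries with a mean-variance trend (8 residual and 4.77 prior degrees of freedom). The 5 contrasts were the culture difference at each oxygen level, the oxygen difference in each culture, and the interaction. Benjamini-Hochberg adjustment covered all tested genes of a contrast, with a threshold of 0.05. The fit was also run on simulated counts with the same relative spread set for every gene and library. The real replicates differed in spread between groups, so that run does not show whether the calls here are right. The members and lists were chosen with earlier results of these data known. Members are named with values if they belong to a set fixed by name (isoforms, c subunits, core set), are among the 4 largest called differences of a contrast and direction with a mean 2 log2 units or more over the minimum, have the smallest p of a complex, or are called alike in both contrasts of culture or oxygen. A planned ranking of genes by their correlation with COX4I2 and COX7A1 was not made, because the libraries fall into separate groups. Of the 48 members 42 matched RefSeq (36 by symbol, 6 by synonym). Of the tested members 1 is counted throughout and is not reported here by name or drawn. No sequence, coordinate or gene length was used, so levels were not compared between genes.

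Alternatives were the deposited values without centring, quantile normalization, median-of-ratios scaling and voom on the recovered reads, other filters, no trend, the replicate number as a block, a fit of only the groups compared, and leaving out each library in turn. Scaling by total reads, as log2(RPM + 1), and leaving out both EHT libraries numbered 3 were added after the data were seen. Python 3.11.15, pandas 2.3.3 and matplotlib 3.10.9 made tables and figures.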

Additional observations from a re-analysis of the deposited data

Results flagged for a closer look

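The response to hypoxia differed between EHT and monolayer by the test of the interaction (limma, Benjamini-Hochberg adjusted p under 0.05) for 24 members. Values are the log2 response in EHT minus that in monolayer, after centring. In complex I the interaction was -1.42 for NDUFS7, -1.31 for NDUFS1, -1.08 for NDUFB1 and -1.01 for NDUFB2. It was -0.91 for NDUFS8, -0.84 for NDUFB9, -0.83 for NDUFV3, -0.82 for NDUFA6, -0.75 for NDUFA8, -0.74 for NDUFB10, -0.65 for NDUFB5 and -0.54 for NDUFA10. In complex III it was -1.39 for UQCRQ, -0.89 for UQCRC1 and -0.69 for UQCRB. In complex IV it was -1.30 for COX5A, -1.15 for COX6B1, -1.05 for COX7B and -0.76 for COX4I1, and 2.59 for COX4I2, the 1 gene with a positive value. In complex V it was -0.79 for ATP5D, -0.75 for ATP5E, -0.56 for ATP5J and -0.52 for ATP5A1. ATP5D, NDUFA6, NDUFB5, NDUFB9, NDUFB10 and NDUFV3 are named here because of these values. Calls for ATP5A1, ATP5D, ATP5J, COX4I2, NDUFA10, NDUFB5, NDUFB10, NDUFS8 and UQCRB were lost when at least 1 library was left out. With quantile normalization ATP5A1 stood at 0.06. No set of 4 or more replicates exists, so single libraries were not tested as outliers.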

How the results depend on the processing

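Over the members called or named and the 5 medians, 2665 alternative values kept direction and side of the threshold, 379 kept the direction and lost the call, 27 gained one, 47 reversed and 3 changed in size with no test. Of the counts and shares, 195 moved little. The other 49 and the reversals follow, and the cause was not tested. On the deposited values the counts higher and lower were 0 and 3 for EHT against monolayer in normoxia, 0 and 1 in hypoxia, 0 and 0 for hypoxia in monolayer, 1 and 0 in EHT, and 1 and 0 for the interaction. Medians there were -0.49 for culture in normoxia, -0.35 for hypoxia in monolayer and 0.14 for the interaction. Over all tested genes they were -0.66, -0.48 and 0.62. For culture in normoxia ATP5D was at -0.098, COX4I1 at -0.28, COX6B1 at -0.23, COX7B at -0.18, NDUFA6 at -0.14, NDUFB1 at -0.36, NDUFB9 at -0.21 and UQCRB at -0.20. For hypoxia in monolayer ATP5A1 was at -0.13, ATP5D at -0.086, COX6B1 at -0.15, NDUFB5 at -0.083, NDUFV3 at -0.066, UQCRC1 at -0.20 and UQCRC2 at -0.15. The interaction was 0.18 for ATP5A1, 0.14 for ATP5J, 0.16 for NDUFA10, 0.046 for NDUFB5 and 0.016 for UQCRB. With quantile normalization 10 were lower in EHT in normoxia, 6 rose and 8 fell with hypoxia in monolayer (median -0.13), 1 rose in EHT, and 11 interactions were lower. ATP5A1 was then at -0.45, COX6B1 at -0.027, NDUFS3 at -0.35, UQCRC1 at -0.25 and UQCRC2 at -0.22 for hypoxia in monolayer, with an ATP5A1 interaction of 0.064. Median-of-ratios scaling gave 10 higher for hypoxia in monolayer. With total reads 6 were higher and 12 lower in EHT in normoxia (median -0.19), 1 rose and 23 fell with hypoxia in monolayer (median -0.54), 1 rose in EHT and 7 interactions were lower. The median of all tested genes was then -0.35 for culture in normoxia and -0.65 for hypoxia in monolayer. NDUFB1 was at -0.0028 for culture in normoxia. For hypoxia in monolayer ATP5A1 was then at -0.315, ATP5D at -0.27, COX6B1 at -0.33, NDUFA10 at -0.084, NDUFB10 at -0.089, NDUFB5 at -0.27, NDUFS1 at -0.72, NDUFS3 at -0.70, NDUFS4 at -0.15, NDUFS7 at -0.66, NDUFV1 at -0.12, NDUFV3 at -0.25, UQCRC1 at -0.39 and UQCRC2 at -0.34. Testing every gene with a read gave 0 lower for hypoxia in monolayer, fitting only the groups compared gave 1 higher for hypoxia in EHT, and leaving out the trend gave 0 higher interactions. Leaving out both EHT libraries numbered 3 gave 6 higher for hypoxia in EHT. With the other denominator the members' shares were 0.643%, 0.567%, 0.607% and 0.429%.

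Leaving out 1 library gave 13 to 18 higher and 3 to 5 lower for culture in normoxia, 1 to 3 and 15 to 20 in hypoxia, 9 to 18 and 0 to 1 for hypoxia in monolayer, 0 to 6 and 15 to 18 in EHT, and 0 to 1 and 15 to 21 for the interaction. Same-numbered libraries of compared groups did not all deviate together (correlations -0.06 to 0.33), so the numbers were not taken to pair them. With the replicate block the counts higher and lower were 15 and 4, 2 and 19, 15 and 1, 2 and 17, and 1 and 20 in the order above. Depth limits ATP5S, with 3 to 28 reads in a library, and COX4I2 in EHT most.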
